A study of Mus musculus with 4 samples.

Results

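The newborn migrating glutamatergic neurons described here were 100 of 1121 cells from 1 C57BL/6 mouse, whose brain was taken at embryonic day E18. The label gives the tissue as cortex, hippocampus and sub ventricular zone together and names no genetic change or treatment, so the cells could come from any of these regions. A single cell suspension was captured with 10x Chromium chemistry, and the emulsion was split into a 190 cell and a 951 cell aliquot. Each aliquot was read on an Illumina instrument for the gene and on a Nanopore instrument for the full-length transcript, and unique molecular identifiers (UMIs) were counted per cell in both. The aliquots are therefore technical replicates of 1 suspension, and every edgeR p-value below measures only the spread between them. The newborn neurons were chosen on Illumina UMIs of named genes among cells with at least 1400 genes detected. They had at least 3 UMIs of Neurod2 and Neurod6 together, at least 2 of Unc5d, Tfap2d and Sstr2 together, at most 3 of the later neuronal genes Nefl, Nefm, Mef2c and Sla, at most 2 of the progenitor genes Eomes and Neurog2, at most 1 of Gad1, Gad2, Dlx1, Dlx5 and Dlx6os1, and fewer than 5 of 8 cell cycle genes. The levels of those genes are hence a description of the choice and were not tested, and genes that go together with them in single cells differ between the groups partly by that choice.

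Glutamatergic neurons of the developing cortex descend from radial glia, often by way of intermediate progenitors that express Eomes and divide in the subventricular zone. The newborn neurons pass through a multipolar phase and then move along radial glial fibres to the cortical plate, where they extend an axon and form synapses. Unc5d encodes a netrin receptor known from multipolar neurons, Tfap2d an AP-2 family transcription factor, Sstr2 a somatostatin receptor, Neurod6 a basic helix-loop-helix factor of postmitotic glutamatergic neurons and Wnt7b a secreted Wnt ligand. Long reads add the exon structure of each molecule, and many genes exchange short exons between glia and neurons.

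Coding alternative exons of 6 genes are shown here, because the long reads separate messages by them and their use differed between the newborn neurons and a neighbouring group. That of Cltb was the least certain, as given below, and it is shown for comparison with Clta. They are annotated as coding in the Gencode vM21 annotation of mouse genome GRCm38, given on the strand of the gene. For Ergic3, a membrane protein of early secretory transport (chr2:156015377-156015391), Chchd3, a protein of the mitochondrial inner membrane organising system (chr6:32893392-32893406, minus strand), Psap, the precursor of the saposins (chr10:60297537-60297545), and for the clathrin light chains Clta (chr4:44030215-44030268) and Cltb (chr13:54597026-54597079, minus strand), the exon is in capitals between 20 bases of the neighbouring exons on each side. For Pkm, pyruvate kinase, the 2 mutually exclusive exons are given whole (chr9:59675029-59675195 in Pkm-202, the muscle type, and chr9:59675568-59675734 in Pkm-201, the type usual in dividing cells), and capitals mark the 64 of 167 bases that differ between them. The 54-base exons of Clta and Cltb share 68.5% of their bases.
Ergic3-202: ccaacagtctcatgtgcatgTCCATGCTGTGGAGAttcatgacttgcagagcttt
Chchd3-205: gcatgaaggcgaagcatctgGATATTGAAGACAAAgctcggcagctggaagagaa
Psap-205: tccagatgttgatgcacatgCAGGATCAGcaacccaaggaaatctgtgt
Clta-204: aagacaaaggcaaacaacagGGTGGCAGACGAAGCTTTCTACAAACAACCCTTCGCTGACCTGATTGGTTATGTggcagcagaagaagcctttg
Cltb-201: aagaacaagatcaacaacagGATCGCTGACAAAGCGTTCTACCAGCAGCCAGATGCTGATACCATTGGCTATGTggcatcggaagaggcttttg
Pkm-202: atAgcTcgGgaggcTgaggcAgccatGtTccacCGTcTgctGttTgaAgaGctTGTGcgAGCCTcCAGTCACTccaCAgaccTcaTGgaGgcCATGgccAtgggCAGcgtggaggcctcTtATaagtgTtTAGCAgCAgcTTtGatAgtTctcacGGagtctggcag
Pkm-201: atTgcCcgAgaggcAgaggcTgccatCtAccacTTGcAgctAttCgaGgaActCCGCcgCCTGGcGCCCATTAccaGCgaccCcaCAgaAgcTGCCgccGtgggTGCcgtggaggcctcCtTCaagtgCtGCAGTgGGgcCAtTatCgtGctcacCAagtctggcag

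Newborn neurons made up 20 of 186 cells in the 190 cell aliquot (10.8%, exact 95% binomial interval 6.69 to 16.1%) and 80 of 935 cells in the 951 cell aliquot (8.56%, interval 6.84 to 10.5%). The intervals cover counting error only. The shares overlapped and did not differ by Fisher's exact test (two-sided p = 0.326). After each cell was thinned to 4000 UMIs, the shares were 6.18% and 5.13% of 178 and 838 cells. Cells below that depth were left out, and the cause of the lower shares was not tested. Summed over the newborn neurons, Illumina sequencing gave 147612 UMIs in the 190 cell aliquot and 718068 in the 951 cell aliquot, and Nanopore sequencing 80306 and 427379. Their median depth was 7356.5 and 8127.5 Illumina UMIs per cell, with 2750.5 and 2804 genes detected. No newborn neuron shared its barcode with the other aliquot, although 13 barcodes occurred in both, and none was called a doublet.

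The 3 selecting genes were sparse. Sstr2 had a UMI in 79% of the newborn neurons, Unc5d in 67% and Tfap2d in 28%, against 4.3%, 2.8% and 0% of 282 GABAergic cells, which should lack them and had a median of 5367 UMIs where the newborn neurons had 7916. GABAergic cells had at least 3 UMIs of Gad1, Gad2, Dlx1, Dlx5 and Dlx6os1 together and met the newborn limit on cell cycle genes. They had at most 2 UMIs of Neurod2 and Neurod6 and at most 2 of Eomes and Neurog2. Within the newborn neurons, 34 cells carried Unc5d with Sstr2, 22 Sstr2 alone, 16 Unc5d alone, 14 all 3 genes, 9 Tfap2d with Sstr2, 3 Unc5d with Tfap2d and 2 Tfap2d alone. Neurod6 was detected in 99% and Wnt7b, a label marker that the rule did not use, in 50%, against 1.1% of GABAergic cells for Wnt7b. Of the genes that the rule kept low, Mef2c still had a UMI in 39% of the newborn neurons and Nefm in 22%. Unc5d (chr8:28646717-29219636) stood at 251 UMIs per 1000000 (CPM) in the 190 cell aliquot and 141 in the 951 cell aliquot, Tfap2d (chr1:19103022-19166346) at 129 and 55.7, and Sstr2 (chr11:113619342-113626028) at 285 and 185. Intermediate progenitors had 212 and 155 CPM of Sstr2 and 55.2 and 72.8 CPM of Unc5d. Later glutamatergic neurons had at most 5.6 CPM of either. Their choice allowed at most 1 UMI of the selecting genes per cell, which limits this level. In the Nanopore reads, 146 of 153 Sstr2 UMIs (95.4%) of the newborn neurons were assigned to Sstr2-203 and 45 of 47 Tfap2d UMIs to Tfap2d-201.

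**Figure D1:**
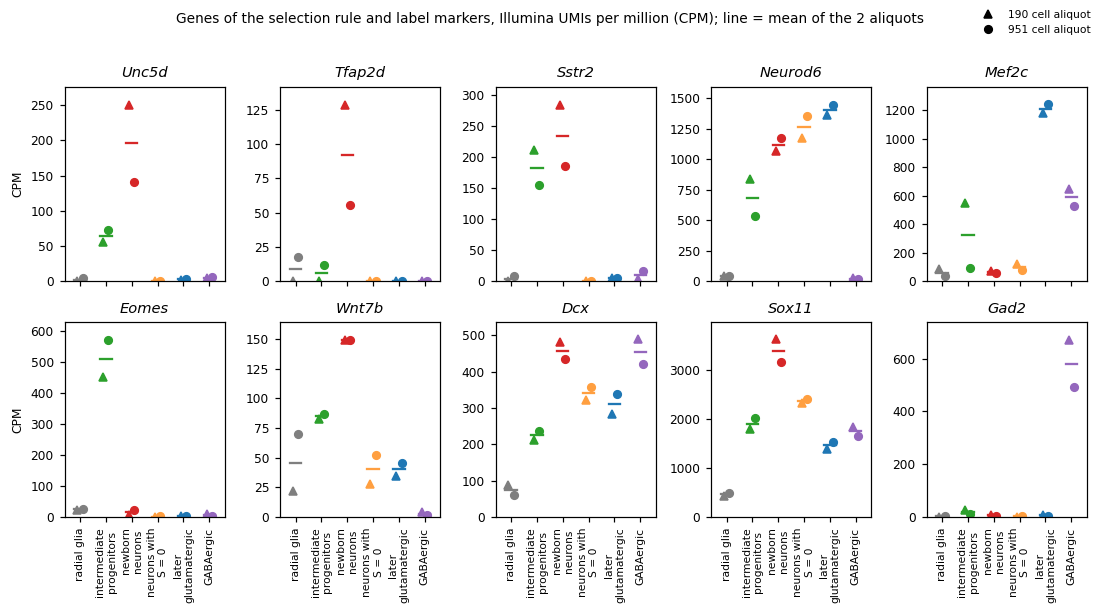
Level of genes of the selection rule (Unc5d, Tfap2d, Sstr2, Neurod6, Mef2c, Eomes, Gad2) and of markers outside it (Wnt7b, Dcx, Sox11) in 6 cell groups, as Illumina CPM; triangles are the 190 cell aliquot, circles the 951 cell aliquot, lines their mean, and S = 0 stands for neurons with no UMI of Unc5d, Tfap2d and Sstr2. Wnt7b stood at 149 CPM in the newborn neurons of both aliquots and at no more than 86.8 CPM in any other group.

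The limits of the rule fell inside continuous distributions. Among the newborn neurons, 36 had exactly 2 UMIs of the selecting genes, and 38 cells that met every other limit had 1. At the limit of 3 UMIs of Nefl, Nefm, Mef2c and Sla stood 7 newborn neurons, and 4 otherwise alike cells had 4. At the limit of 2 UMIs of Eomes and Neurog2 stood 11 newborn neurons, and 4 otherwise alike cells had 3. A further 136 cells (13 and 123) met every other limit but had no UMI of the selecting genes.

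The label was checked against markers outside the rule. The 10 newborn or migrating neuron markers, among them Dcx, a microtubule-associated protein of migrating neurons, and the transcription factor Sox11, summed to 8468 and 7013 CPM in the newborn neurons, 5575 and 5020 CPM in intermediate progenitors and 4274 and 4106 CPM in later glutamatergic neurons. They summed to 6241 and 5806 CPM in the neurons described below that met every limit but had no UMI of the selecting genes. Both aliquots of the newborn neurons lay above both aliquots of each of these groups. Much of the newborn sums came from Sox11. In newborn neurons with 2 and with at least 3 UMIs of the selecting genes it stood at 3370 and 3693 CPM in the 190 cell aliquot. In the 951 cell aliquot it stood at 3087 and 3193 CPM. Of the 9 markers tested, 2 were higher than in progenitors (Dcx and Sox11), where 0.813% of all genes were. Against later neurons 3 were higher (Sox11, Rnd2 and Neurod1), where 2.11% of all genes were. None of the 9 passed against the neurons without the selecting genes, with 6 above and 3 below 0. There 0.397% of all genes passed, so that this count says little about the label. The 9 GABAergic markers outside the rule summed to 47.4 and 23.7 CPM, with Lhx6, Erbb4 and Slc32a1 at 0, where GABAergic cells had 1833 and 1745 CPM. Of 6 Cajal-Retzius markers none was seen in the 190 cell aliquot, and in the 951 cell aliquot Calb2 gave 62 of 70 UMIs, in 12 cells, with Trp73, Lhx1, Lhx5 and Ndnf at 0. Microglial, endothelial and oligodendrocyte precursor markers each summed to no more than 6.96 CPM. Erythroid markers, led by the haemoglobin gene Hbb-bs, summed to 454 and 593 CPM in the newborn neurons and 776 and 613 CPM in later neurons, and their part in the results was not tested.

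Compared with intermediate progenitors (10 and 45 cells with at least 3 UMIs of Eomes and Neurog2), the newborn neurons had less RNA of Vim, Dbi and Gadd45g, among others, and more of Rbfox1, Zfp57 and Lsamp. These progenitors also met the newborn limits on Gad, Dlx and cell cycle genes, so cells with 5 or more cell cycle UMIs were left out. No limit was set on Neurod2, Neurod6 or the selecting genes. Per cell, Neurod2 and Neurod6 together had a median of 10.5 and 6 UMIs and the selecting genes 1.5 and 2. Median depth of the progenitors was 9874 and 9058 UMIs, against 7356.5 and 8127.5 in the newborn neurons. By edgeR's quasi-likelihood test with Benjamini-Hochberg adjustment, 108 of 6150 genes (1.76%) passed an adjusted p of 0.05, 50 higher (0.813%) and 58 lower (0.943%) in the newborn neurons, with a median absolute log2 fold change of 1.30 and 1.98. The number rose to 403 (6.55%) when the aliquot was a block. The intermediate progenitors of the 190 cell aliquot also carried later neuronal RNA, with Mef2c at 552 CPM against 96.2 CPM in the 951 cell aliquot. The 6 Cajal-Retzius markers summed to 396 CPM in them, led by Reln, and to 141 CPM in the progenitors of the 951 cell aliquot, led by Calb2, with Trp73 and Ndnf at 0 in both, against 0 and 97.5 CPM in the newborn neurons. None of the 4 tested passed, and their part in the comparison was not tested. Without these progenitors of the 190 cell aliquot 145 genes passed. Fewer passed without the newborn neurons of the 190 cell aliquot (64) or without the newborn neurons or the progenitors of the 951 cell aliquot (29 each).

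Vim, an intermediate filament of radial glia, stood at 27.1 and 68.2 CPM in the newborn neurons and at 570 and 1016 CPM in intermediate progenitors. The groups did not overlap, and Vim was lower in the newborn neurons by edgeR (log2 fold change -3.90 ± 0.38 SE, adjusted p = 9.01e-05). Dbi, an acyl-CoA binding protein of glial progenitors, stood at 203 and 217 CPM against 966 and 1800 (log2 -2.79 ± 0.26, adjusted p = 2.64e-06 by edgeR). Neither gene passed against later neurons, which had 90.3 and 55.2 CPM of Vim and 257 and 199 of Dbi (log2 -0.38 ± 0.39 and -0.17 ± 0.26). Gadd45g, a stress-response gene known from differentiating neural progenitors, stood at 74.5 and 94.7 CPM against 442 and 439 CPM (log2 -2.37 ± 0.30, adjusted p = 2.18e-05 by edgeR). Phgdh, the entry enzyme of serine synthesis, had 6 UMIs in all newborn neurons and 59 in the fewer intermediate progenitors (log2 -3.94 ± 0.58). Rhbdl3, a rhomboid family protein, had 3 UMIs in the newborn neurons, a CPM ratio of 23.7 with a counting interval of 7.61 to 120. The chromatin remodeler Chd7 (-2.92), the HMG-box factor Tox3 (-2.57), the collagen chaperone Serpinh1 (-2.49), Btbd17 (-2.53) and the noncoding Snhg18 (-3.60) also fell.

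Among the genes that passed with at least 40 UMIs in the newborn neurons and no overlap between the groups, 48 of the 50, the largest rise was that of Pdzrn3 (chr6:101149609-101377897), a PDZ domain ubiquitin ligase, at 94.8 and 51.5 CPM in the newborn neurons against 9.2 and 7.04 CPM, that is 51 UMIs against 4 (log2 3.06 ± 0.76, adjusted p = 0.0269 by edgeR). Fam84a had 88.1 and 55.7 CPM against 0 and 11.7 (log2 2.78 ± 0.68). Kcnq3, a subunit of the M-type potassium channel, had 94.8 and 57.1 CPM against 0 and 16.4 (2.40 ± 0.64). These 3 genes were scarce in every group, and the 190 cell aliquot held 14 or fewer UMIs of each in the newborn neurons. Better covered rises were Rbfox1, a neuronal splicing factor, with 179 UMIs at 332 and 181 CPM against 82.8 and 51.6 (1.91 ± 0.35, adjusted p = 0.00243 by edgeR), the imprinting factor Zfp57 (2.18 ± 0.41) and the host gene of the neuronal microRNA miR-124, Mir124-2hg (2.09 ± 0.39). The adhesion molecules Lsamp (2.00) and Pcdh9 (1.96), the vesicle trafficking protein Nbea (1.93) and the transporter gene Slco5a1 (2.06) rose as well. Rbfox1, Pcdh9, Nbea and Slco5a1 did not pass the test against later neurons, with log2 fold changes between -0.20 and 0.44.

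Compared with later glutamatergic neurons (37 and 188 cells, with at least 4 UMIs of Nefl, Nefm, Mef2c and Sla and at most 1 of the selecting genes), the newborn neurons had more RNA of Pcp4, Zbtb20, Sema3c and Cdh4, among others, and less of Ndrg1, Dync1i1 and Lrfn5. The later neurons were deeper, with a median of 11300 and 10391.5 Illumina UMIs per cell against 7356.5 and 8127.5 in the newborn neurons. Both groups were cut on UMI counts per cell, and the part of depth was not tested. A total of 237 of 6150 genes (3.85%) passed, 130 higher (2.11%) and 107 lower (1.74%), and 612 (9.95%) with the aliquot as a block. Without the newborn neurons of the 951 cell aliquot 69 genes passed, and without the later neurons of the 190 or the 951 cell aliquot 111 or 82. The comparisons with progenitors and with later neurons share the newborn samples. Their values are therefore set side by side and not counted as separate evidence.

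Pcp4 (chr16:96467606-96525793), a calmodulin regulator, stood at 305 and 313 CPM in the newborn neurons and at 16.2 and 30.9 CPM in later neurons. The groups were far apart (log2 3.45 ± 0.30, adjusted p = 1.04e-08 by edgeR), while intermediate progenitors had 396 and 394 CPM (log2 -0.41 ± 0.26). Zbtb20 (chr16:42875881-43642602), a repressor known from hippocampal and upper-layer neurons, stood at 528 and 875 CPM against 60.2 and 103 CPM in later neurons (log2 2.98 ± 0.26, adjusted p = 3.55e-08 by edgeR), with 828 and 894 CPM in progenitors. Both genes thus stood at a level near that of progenitors and fell off in the later neurons. Sema3c (chr5:17574281-17730268), a secreted semaphorin, was higher in the newborn neurons, at 135 and 149 CPM, than in later neurons at 11.6 and 14.7 CPM (log2 3.27 ± 0.35, adjusted p = 4e-07 by edgeR). Progenitors had 55.2 and 58.7 CPM of Sema3c, a difference that missed the threshold (log2 1.26 ± 0.36, adjusted p = 0.0674 by edgeR). Cdh4, the cell adhesion molecule R-cadherin, stood at 149 and 107 CPM against 4.63 and 14.2 CPM in later neurons (log2 3.23 ± 0.37). Mfap4 (3.97), Pdzrn3 (3.66), the phosphatase Dusp14 (3.09), the noncoding 2600014E21Rik (2.93), the adhesion molecule Negr1 (2.92) and the Ras exchange factor Rasgef1b (2.91) complete the 10 largest rises on the log2 scale among the 105 of 130 higher genes with at least 40 UMIs and no overlap between the groups.

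On the lower side, Ndrg1 stood at 6.77 and 13.9 CPM in the newborn neurons and at 118 and 160 CPM in later neurons (log2 -3.57 ± 0.47, adjusted p = 3.26e-05 by edgeR). Dync1i1, the neuronal intermediate chain of dynein, had 20.3 and 12.5 CPM against 204 and 152 (-3.68 ± 0.64), and Lrfn5, a synaptic adhesion molecule, 6.77 and 15.3 CPM against 139 and 156 (-3.51 ± 0.41). Each of these genes was nearly undetected in the newborn neurons and common in the later ones. The teneurin Tenm3 (-3.04), the kinesin adaptor Sybu (-3.42), the guanylate cyclase subunit Gucy1b3 (-3.22), the LIM cofactor Ldb2 (-3.06), Bend6 (-2.95) and the zinc finger factor Tshz3 (-2.89) fell too. The largest fitted fall, of 1700086L19Rik, rests on 2 UMIs in the newborn neurons, a CPM ratio of 13.9 with a counting interval of 3.71 to 116.

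Against the mean of progenitors and later neurons, 47 genes (0.764%) passed, 38 higher (0.618%) and 9 lower (0.146%), and 197 (3.2%) with the block. Without the newborn neurons of the 190 or the 951 cell aliquot 23 or 19 passed, and without the progenitors or the later neurons of the 951 cell aliquot 71 or 31. A gene can pass this contrast while it is like 1 of the neighbours. Pdzrn3 (log2 3.36 ± 0.55), Trim9, a ubiquitin ligase of netrin-guided axons (2.31 ± 0.50), Fam84a (2.26), Sema3c (2.26 ± 0.29), the heparan sulphate proteoglycan Gpc6 (2.07), Cdh4 (1.96), the Rac exchange factor Prex1 (1.78), Lsamp (1.73), Rasgef1b (1.68) and the homeobox gene Meis2 (1.52 ± 0.19) had the largest rises among the 34 of 38 higher genes within the same limits. Pdzrn3, Fam84a, Lsamp and Meis2 also passed against each neighbour on its own. Trim9, Sema3c, Gpc6, Cdh4, Prex1 and Rasgef1b passed against later neurons and not against progenitors, where Rasgef1b had a log2 fold change of 0.44 and Cdh4 of 0.69. Meis2 (chr2:115863064-116065839) was the most abundant of them, at 1863 and 1404 CPM in the newborn neurons, 653 and 798 CPM in progenitors and 391 CPM in both aliquots of the later neurons. Both newborn values exceeded those of every other group, and Meis2 was higher than in progenitors (log2 1.08 ± 0.23, adjusted p = 0.0101) and than in later neurons (1.96 ± 0.23, adjusted p = 2.09e-06) by edgeR. Of the 9 lower genes 7 were within these limits, namely Ndrg1 (-2.54), Tox3 (-1.73), the adaptor Dok5 (-1.28), Fezf2 (-1.22), the glycolytic enzyme Gpi1 (-1.16), Abracl (-0.87) and the cytokine-like Mif (-0.73). Fezf2 and Gpi1 passed against each neighbour, Tox3 and Abracl against progenitors and not later neurons, and Ndrg1, Dok5 and Mif against later neurons and not progenitors. Fezf2, a determinant of subcortical projection neurons, stood at 81.3 and 66.8 CPM in the newborn neurons, 147 and 164 CPM in progenitors and 185 and 133 CPM in later neurons. The newborn neurons were uneven in it. In the 951 cell aliquot Fezf2 stood at 142 CPM in the 19 cells with Sstr2 as their only selecting gene. The 12 cells with Unc5d alone had 0 UMIs. The 190 cell aliquot (3 and 4 cells) went the other way, at 88.1 and 219 CPM, and the difference was not tested.

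**Figure D2:**
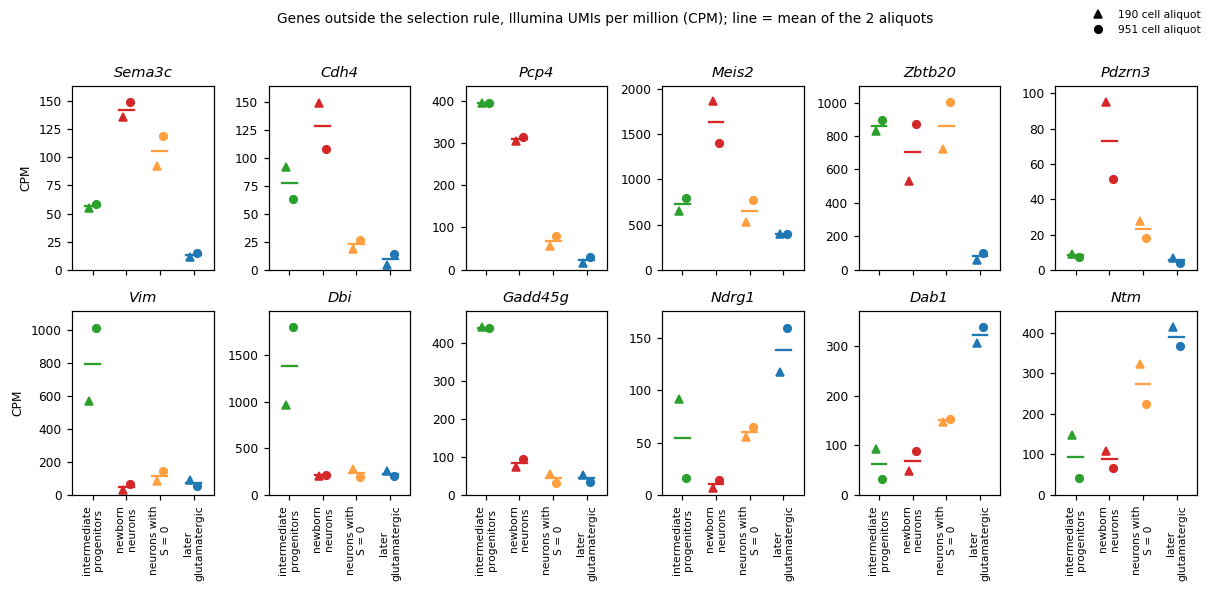
Level of 12 genes outside the selection rule, as Illumina CPM, in intermediate progenitors, newborn neurons, neurons with no UMI of Unc5d, Tfap2d and Sstr2 (S = 0) and later glutamatergic neurons; triangles are the 190 cell aliquot, circles the 951 cell aliquot and lines their mean. Pcp4 stood at 305 and 313 CPM in the newborn neurons and at no more than 80.2 CPM in both other neuronal groups, whereas Zbtb20 stood at no more than 103 CPM in later neurons and at 528 CPM or more in the other groups drawn.

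As a description over all cells, with no test, the genes outside the rule, with at least 40 UMIs in the newborn neurons and a ratio above 2 in each aliquot, that had the highest CPM ratio of newborn neurons over all other cells were 2600014E21Rik (5.06), Dusp14 (5.0), Pdzrn3 (4.82), Fam84a (4.19), Trim9 (4.12), Tbr1 (4.09), Prex1 (4.04), Wnt7b (3.99), Sema3c (3.92) and Cdh4 (3.63).

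The closest comparison was with the 136 neurons that met every other limit but had no UMI of Unc5d, Tfap2d and Sstr2. It was added after the data had been seen. These neurons had a median of 7852.5 UMIs, close to the 7916 of the newborn neurons, and by edgeR 25 of 6297 genes passed (0.397%), 8 higher (0.127%) and 17 lower (0.27%) in the newborn neurons, with 135 (2.14%) when the aliquot was a block. Without the newborn neurons of the 190 cell aliquot 12 passed, and without the 951 cell aliquot of the comparison group 6. The genes higher in the newborn neurons included 3 transcription factors. Tbr1 (chr2:61802930-61814114), a T-box factor that follows Eomes in the glutamatergic lineage, stood at 142 and 178 CPM in the newborn neurons, 64.6 and 52.5 CPM in the neurons without the selecting genes, 60.2 and 61.8 CPM in later neurons and 73.6 and 77.4 CPM in progenitors. The newborn neurons were the highest group in both aliquots, with a log2 fold change of 1.57 ± 0.31 against the neurons without the selecting genes (adjusted p = 0.0142 by edgeR). The POU factor Pou3f2, at 887 and 603 CPM against 295 and 272, rose by 1.35 ± 0.23 (adjusted p = 0.00449 by edgeR), and Meis2 by 1.25 ± 0.24 on the log2 scale. The rest were Cdh4 (2.19 ± 0.38), Pcp4 (2.02 ± 0.30), Wnt7b (1.58 ± 0.32), the transcriptional coregulator Cited2 (1.57 ± 0.32) and the linker histone gene H1f0 (1.18 ± 0.28).

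Lower in the newborn neurons were 17 genes. Ntm, an adhesion molecule, stood at 108 and 66.8 CPM in the newborn neurons against 323 and 224 CPM (log2 -1.73 ± 0.34, adjusted p = 0.0142 by edgeR). Gabra2, a GABA-A receptor subunit, stood at 108 and 71 CPM against 415 and 211 (-1.79 ± 0.34), and the kinase subunit Camk2b at 6.77 and 51.5 CPM against 129 and 131 (-1.68 ± 0.37). None of these overlapped between the groups. The NMDA receptor subunit Grin2b (-1.25 ± 0.26), the growth cone protein Gap43 (-1.21 ± 0.27), the forkhead factor Foxp1 (-1.49 ± 0.30), Fezf2 (-1.32 ± 0.29) and the LIM-only gene Lmo4 (-1.07 ± 0.25) were lower as well, as were, among others, Lmo7 (-2.90), Ndrg1 (-2.34), the sialyltransferase gene St6galnac5 (-2.21), the adhesion molecule Cadm1 (-1.58), the kinase Prkce (-1.52), Msra (-1.50), the RNA-binding Khdrbs2 (-1.43) and the phosphatase Ptprz1 (-1.32). Genes that set the newborn neurons apart from the later neurons did not always separate them here: Zbtb20 stood at 720 and 1001 CPM in the neurons without the selecting genes and Sema3c at 92.3 and 119 CPM, with log2 fold changes of -0.32 ± 0.25 and 0.32 ± 0.28 that missed the threshold.

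The levels were also read against the number of UMIs of the selecting genes, with all other limits met. In cells with 0, 1, 2 and at least 3 such UMIs of the 951 cell aliquot (123, 31, 32 and 48 cells), Tbr1 stood at 52.5, 40, 143 and 200 CPM and Meis2 at 768, 805, 1259 and 1492 CPM. In the same order Fezf2 stood at 176, 139, 73 and 63 CPM, and Gap43 at 547, 530, 400 and 263 CPM. Tbr1, Meis2, Pou3f2, Cdh4, Wnt7b and Sox11 were higher at 2 than at 1 UMI and Fezf2 and Gap43 lower, in both aliquots. Dcx was lower at 2 than at 1 UMI, at 413 against 460 CPM in the 190 cell aliquot and 418 against 501 CPM in the 951 cell aliquot. From 1 to 2 UMIs Sema3c went from 121 to 127 CPM and from 128 to 125 CPM in these aliquots. Grin2b went from 303 to 159 CPM and from 201 to 246 CPM. Neurod1 and Pcp4 did not rise at the limit in the 951 cell aliquot. Neurod1 stood at 170, 322, 275 and 285 CPM there and Pcp4 at 80.2, 249, 191 and 388 CPM. In the 190 cell aliquot, from 1 to 2 UMIs, Neurod1 went from 545 to 350 CPM and Pcp4 from 206 to 350 CPM. The 190 cell aliquot held only 7 and 4 cells with 1 and 2 UMIs, with 82639 and 31451 UMIs of all genes. In them Cdh4 had 2 and 2 UMIs, Wnt7b 2 and 3 and Tbr1 2 and 3, so their rise there rests on very few molecules. No test was made on these classes.

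**Figure D3:**
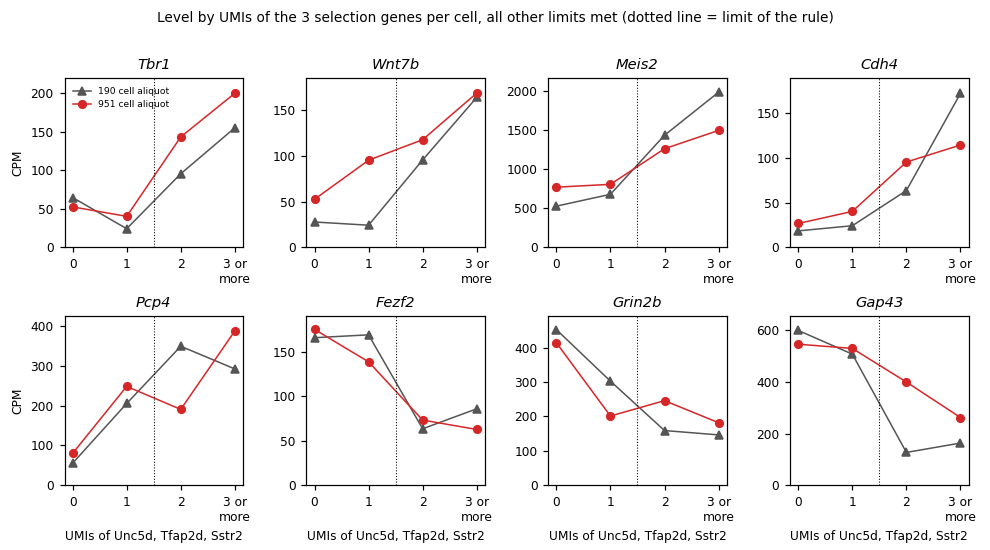
Level of 8 genes outside the rule, as Illumina CPM, by the number of UMIs of Unc5d, Tfap2d and Sstr2 per cell in cells that met all other limits; the dotted line marks the limit of the rule, and newborn neurons lie to its right. In the 951 cell aliquot Tbr1 went from 52.5 CPM at 0 UMIs to 200 CPM at 3 or more, and Fezf2 from 176 to 63 CPM.

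Factors of projection neuron identity were the list with the most calls against later neurons. Of 39 tested, 12 were higher and 7 lower in the newborn neurons and 20 did not pass, where 2.11% of all genes tested were higher and 1.74% lower, with a median log2 fold change of 0.10 beside 0.01 over all genes tested. Neurod1, a basic helix-loop-helix factor of early neurons, stood at 230 and 281 CPM against 27.8 and 50.2 (log2 2.51 ± 0.27, adjusted p = 4e-07 by edgeR). The upper-layer factors Cux1 (0.96 ± 0.24) and Cux2 (1.96 ± 0.49), Pou3f2 (1.31), the LIM homeobox gene Lhx2 (1.51), the nuclear receptor Nr2f1 (1.33), Emx2 (2.46), Nfia (0.85), Nfib (1.07), Tbr1 (1.35), Meis2 and Zbtb20 rose with it. Lower were Ldb2, Rorb (-2.08), Ssbp2 (-1.59), Foxp1 (-1.45), Fezf2 (-1.21), Lmo4 (-0.88) and Id2 (-0.77). Bcl11b, a factor of subcerebral neurons, stood at 224 and 173 CPM against 220 and 163 and did not pass (log2 -0.06 ± 0.24). Against intermediate progenitors 4 of 39 were higher (Bcl11b, Cux1, Zeb2 and Meis2) and Fezf2 was lower, where 0.813% and 0.943% of all genes were, with a median of 0.35 beside 0.00. Against the neurons without the selecting genes 3 rose (Tbr1, Pou3f2, Meis2) and 3 fell (Fezf2, Lmo4, Foxp1), where 0.127% and 0.27% of all genes did, with a median of -0.01 beside 0.01.

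**Figure D4:**
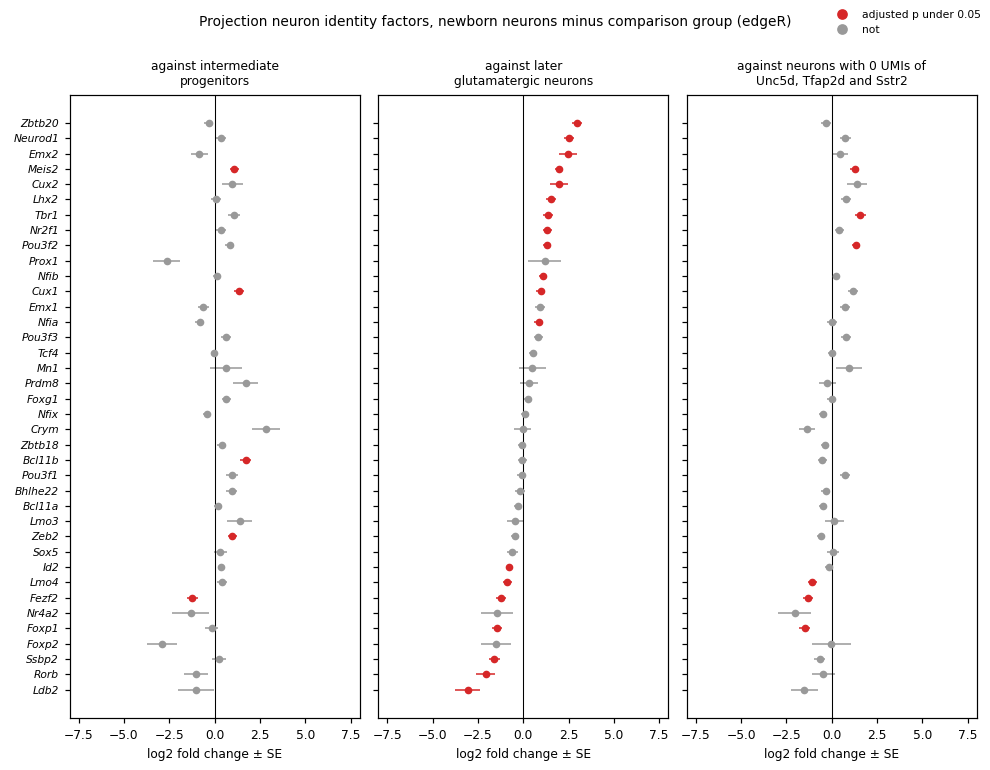
Log2 fold change with standard error of projection neuron identity factors in newborn neurons against intermediate progenitors, later glutamatergic neurons and neurons with no UMI of Unc5d, Tfap2d and Sstr2, from edgeR; red points passed an adjusted p of 0.05, and Prox1, with no UMI in the last group, is left out there. Against later neurons 12 red points lie above 0 and 7 below.

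In single cells, detection followed the same genes. After thinning to 4000 UMIs, which kept 96 newborn neurons, 211 later neurons, 123 neurons without the selecting genes and 241 GABAergic cells, Tbr1 had a UMI in 42.7% of the newborn neurons, 23.2% of later neurons, 17.9% of the neurons without the selecting genes and 1.7% of GABAergic cells. Before thinning Tbr1 was seen in 66% of the newborn neurons. Neurod1 was detected in 52.1% of thinned newborn neurons, 14.2% of later and 0.8% of GABAergic cells. Prox1, a factor of dentate granule neurons, had a UMI in 2% of the newborn neurons.

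Genes of the migration cytoskeleton were mostly higher than in progenitors by sign, and few passed. Of 32 tested, Dcx (log2 0.94 ± 0.23), the tubulin gene Tubb2b (0.69 ± 0.17) and the stathmin Stmn2 (1.17 ± 0.25) were higher than in progenitors, none was lower and the median was 0.44 beside 0.00 over all genes, of which 0.813% were higher. Against later neurons Rnd2, a small GTPase of multipolar neurons, was the single member that was higher, at 176 and 111 CPM against 23.2 and 14.2 (2.90 ± 0.36, adjusted p = 3.08e-06 by edgeR). Tuba1a, Dab1, Stmn2, Stmn3, Map1b, Mapt, Tmsb10 and Tmsb4x were lower than in later neurons, and 23 members did not pass, with a median of -0.27, where 1.74% of all genes were lower. Dab1, the adaptor of Reelin signalling, had the widest gap, at 47.4 and 89.1 CPM in the newborn neurons and 306 and 338 CPM in later neurons (-2.14 ± 0.33). Against the neurons without the selecting genes none of the 32 passed, where 0.127% of all genes were higher and 0.27% lower.

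Among 26 guidance receptors, 6 were higher than in later neurons and none was lower, with a median of 0.32, where 2.11% of all genes were higher and 1.74% lower. The ephrin receptors Epha4, at 325 and 373 CPM against 94.9 and 99.3 (log2 1.77 ± 0.26), Epha3 (1.55 ± 0.26) and Epha5 (1.09 ± 0.21), the Reelin receptor Lrp8 (1.52 ± 0.25) and the receptor phosphatase Ptprs (0.83 ± 0.22) rose. The chemokine receptor Cxcr4 rose on 10 UMIs in the newborn neurons against 0 in later neurons, at least 9.26-fold higher with a floor of 3 UMIs over the later group. Summed over the group, the newborn neurons had more Lrp8 and less of its intracellular partner Dab1 than later neurons, and the pair was not compared in single cells. Against progenitors Epha5, at 671 and 604 CPM against 184 and 242 (1.47 ± 0.23), and the adhesion molecule Chl1 (1.71 ± 0.42) were higher, with a median of 0.65, where 0.813% of all genes were higher. Of 17 guidance ligands, none passed against progenitors, and Sema3c, Sema5a and the chemokine Cxcl12 were higher than in later neurons, Sema5a on 17 UMIs against 3. Against the neurons without the selecting genes none of the 26 receptors or the 18 ligands tested there passed. Of all genes, 0.127% were higher and 0.27% lower in that comparison. The receptors summed to 4248 and 3954 CPM in the newborn neurons and to 3988 and 4197 CPM in the neurons without the selecting genes.

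Of the Wnt ligands only 2 of 10 had counts high enough to test. Wnt7b (chr15:85535437-85582473) stood at 149 CPM in both aliquots of the newborn neurons, 82.8 and 86.8 CPM in progenitors, 34.7 and 45.6 CPM in later neurons and 27.7 and 52.5 CPM in the neurons without the selecting genes. It was higher than in later neurons (log2 1.73 ± 0.29, adjusted p = 0.000306) by edgeR and did not pass against progenitors (0.73 ± 0.32, adjusted p = 0.327). Of 12 Wnt receptors and targets, Ctnnb1, encoding beta-catenin, was higher than in later neurons (0.97 ± 0.26) and 11 did not pass, where 2.11% of all genes were higher. None of the 12 passed against progenitors, where 0.813% of all genes were higher and 0.943% lower.

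Genes of neuronal signalling are read against the share called over all genes, 0.813% higher and 0.943% lower than in progenitors and 2.11% higher and 1.74% lower than in later neurons. Of 16 glutamate receptor and postsynaptic genes, the AMPA receptor subunit Gria2 was higher than in progenitors, at 1091 and 629 CPM against 304 and 174 (log2 1.85 ± 0.29, adjusted p = 0.00122 by edgeR), while Grin2b (-1.47), Camk2b (-2.01) and Nlgn1 (-2.44) were lower than in later neurons, with a median of -0.86. Of 21 synaptic vesicle genes, Rab3a (0.96) was higher than in progenitors, Slc17a6, a vesicular glutamate transporter (1.96), was higher than in later neurons, and Syt4 and Gap43 were lower. Of 16 ion channel and transporter genes, Kcnq3 was higher than in progenitors, and the sodium channel Scn2a1 (-2.13) and the pump subunit Atp1b1 were lower than in later neurons, with a median of -0.65. Of 12 Notch and proneural genes, Notch1, the fringe gene Mfng, Btg2 and Gadd45g were lower than in progenitors, with a median of -1.14, and Mfng was still higher than in later neurons (2.50 ± 0.51).

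The Nanopore reads gave the share of each isoform among a gene's UMIs, a measure that the choice of cells did not use. Radial glia were cells with at least 3 UMIs of Slc1a3, Sox2, Pax6 and Hes5 together. They had at most 2 UMIs of Neurod2 and Neurod6 and at most 2 of Eomes and Neurog2. They also met the newborn limits on Gad, Dlx and cell cycle genes, which left out cells with more cell cycle UMIs. By edgeR's test of differential isoform usage over 280 genes with at least 2 measured isoforms, 26 genes (9.29%) differed between the newborn neurons and radial glia (6 and 24 cells), 8 (2.86%) between them and intermediate progenitors and 6 (2.14%) between them and later neurons, with 31 (11.1%), 10 (3.57%) and 12 (4.29%) when the aliquot was a block. The radial glia also carried Cajal-Retzius markers, led by Reln, at 981 and 433 CPM against 0 and 97.5 CPM in the newborn neurons, and oligodendrocyte precursor markers, led by Olig1, at 0 and 170 CPM against 0 and 6.96 CPM, with Pdgfra at 0. Their part in the isoform shares was not tested. Without the newborn neurons of the 951 cell aliquot 15, 0 and 1 genes passed in these comparisons. Without its radial glia, progenitors or later neurons 4, 3 and 3 passed, and without the newborn neurons of the 190 cell aliquot 4 against progenitors and 2 against later neurons. Without the later neurons of the 190 cell aliquot 2 passed.

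In one set of genes the share in the newborn neurons was near that of later neurons. Ergic3-202, with the 15-base exon shown above, took 11.6% of Ergic3 UMIs in radial glia, 53.3% and 65.2% in intermediate progenitors (of 15 and 66 UMIs), 96.7% and 93.8% in newborn neurons (of 30 and 128) and 96.6% and 94.5% in later neurons. The newborn and later shares overlapped, and both aliquots of the newborn neurons exceeded those of progenitors (adjusted p = 0.00092 by edgeR). Chchd3-205, with its own 15-base exon, took 0 of 20 Chchd3 UMIs in radial glia (exact interval up to 16.8%), 66.7% and 61.5% in progenitors, 100% and 97.9% in newborn neurons and 97.8% in later neurons (adjusted p = 0.0019 against progenitors by edgeR). Psap-205, with a 9-base exon, took 39.2% of Psap UMIs in radial glia, 66.7% and 52.4% in progenitors, 100% and 88.1% in newborn neurons and 91.5% in later neurons (adjusted p = 0.0132 against progenitors by edgeR). For all 3 genes the newborn share lay within the interval of the later share or overlapped it. A share is that of the whole annotated isoform, and the exon shown is not always its single difference: Ergic3-202 also holds 18 coding bases (chr2:156016688-156016705) that Ergic3-201 lacks, and Chchd3-205 and Chchd3-201 differ at the 3′ end too. The calls of Psap and of Eef1d, given next, against progenitors were lost without the newborn neurons of either aliquot, and those of Ergic3 and Chchd3 without the newborn neurons of the 951 cell aliquot. Clta-204, with the 54-base exon, went the same way, at 10.3% of Clta UMIs in radial glia, 47.5% and 37.7% in progenitors, 76.4% and 67.5% in newborn neurons and 80.9% and 77% in later neurons. It differed from progenitors (adjusted p = 0.0032 by edgeR) and not detectably from later neurons (adjusted p = 0.378).

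Eef1d-204, of an elongation factor subunit, took 3.75% of Eef1d UMIs in radial glia, 35.3% and 21.4% in progenitors, 60% and 65.2% in newborn neurons and 58.4% in later neurons (adjusted p = 0.0123 against progenitors by edgeR). Nasp-201, an isoform of the histone chaperone gene Nasp, took 57.1% and 57.4% in progenitors and 19% and 18.2% in newborn neurons (adjusted p = 0.0019 by edgeR). Nasp usage missed the threshold against later neurons (adjusted p = 0.0695 by edgeR) and passed with the aliquot as a block (adjusted p = 0.0175 by edgeR). Zfand6-202 took 17.6% of Zfand6 UMIs in radial glia, 80% in progenitors and 82% in newborn neurons (adjusted p = 2.3e-05 against radial glia by edgeR). Gpm6b-206, of the membrane glycoprotein gene Gpm6b, took 3.64% in radial glia and 37.5% and 63.9% in newborn neurons (adjusted p = 0.00059 by edgeR), whose aliquots lay apart but with overlapping intervals (15.2 to 64.6% and 54.1 to 72.9%).

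In a second set the share pooled over both aliquots lay between those of the neighbours. Pkm-201, with the exon usual in dividing cells, took 92.3% and 96.4% of Pkm UMIs in radial glia, 63.3% and 81.1% in progenitors, 39.5% and 42.1% in newborn neurons (of 76 and 416 UMIs) and 12.9% and 14.9% in later neurons. The newborn shares lay between those of both neighbours in each aliquot, although in the 190 cell aliquot the exact interval (28.4 to 51.4%) overlapped that of progenitors (48.3 to 76.6%), and Pkm usage differed by edgeR from progenitors (adjusted p = 0.0019) and from later neurons (adjusted p = 0.0011). Myl6-201, of a myosin light chain, took 22% of Myl6 UMIs in radial glia, 29.7% and 49.7% in progenitors, 46.5% and 61.2% in newborn neurons and 79.9% and 86.8% in later neurons. It differed from later neurons (adjusted p = 0.0011 by edgeR) but not detectably from progenitors, whose aliquots overlapped with the newborn ones (adjusted p = 0.716). Cdc42-201, of a small GTPase of cell polarity, took 19.2% of Cdc42 UMIs in radial glia, 25.9% and 30% in progenitors, 47.6% and 42.7% in newborn neurons and 62.4% and 64.6% in later neurons. The difference from later neurons passed with the aliquot as a block (adjusted p = 0.0067) and missed the threshold without it (adjusted p = 0.0596 by edgeR).

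**Figure D5:**
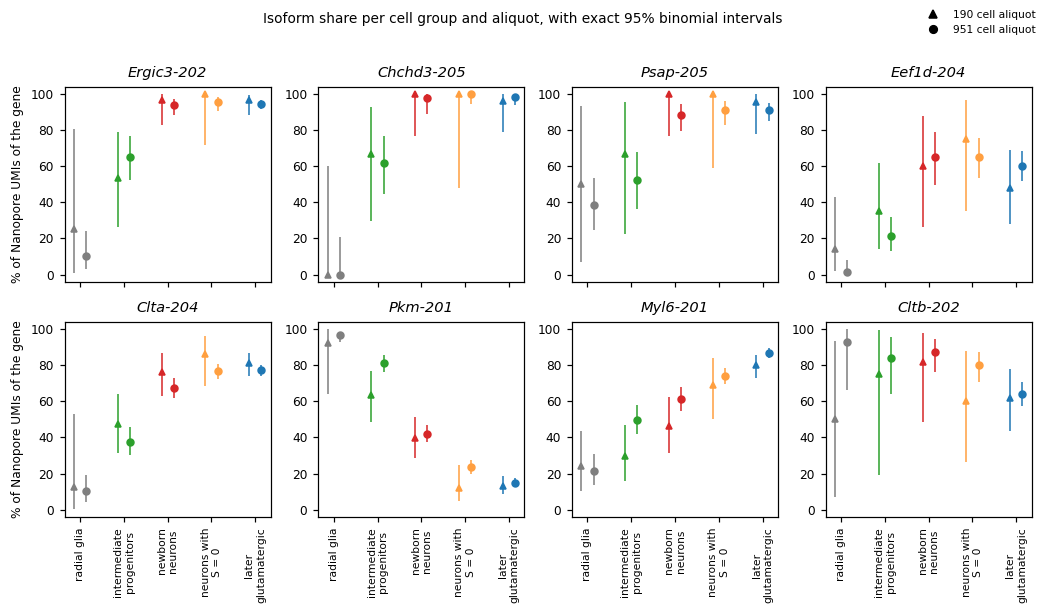
Share of 8 isoforms among the Nanopore UMIs of their gene in radial glia, intermediate progenitors, newborn neurons, neurons with no UMI of Unc5d, Tfap2d and Sstr2 (S = 0) and later glutamatergic neurons; triangles are the 190 cell aliquot, circles the 951 cell aliquot, and bars exact 95% binomial intervals. Ergic3-202, Chchd3-205 and Psap-205 lie at 88.1% or more in all 3 neuronal groups, whereas Pkm-201 stands at 39.5% and 42.1% in newborn neurons, between progenitors and later neurons.

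The isoform use of 4 more genes, Dpf1, Cltb, Zfp207 and Srsf3, passed against later neurons and missed the threshold against progenitors, and the difference between these comparisons was not tested. Dpf1-202, of a subunit of the neuronal BAF complex, took 85.7% and 89.4% of Dpf1 UMIs in newborn neurons against 33.3% and 63.2% in later neurons (of 7 and 47 against 45 and 163 UMIs, adjusted p = 0.0417 by edgeR). Cltb-202, which lacks the 54-base exon, took 81.8% and 87.1% of Cltb UMIs against 61.8% and 64.1% (adjusted p = 0.0483 by edgeR), and Cltb-201, which holds it, 6.85% against 29.1%. Both light chains thus carry a like 54-base exon, of which the newborn neurons already used that of Clta in most UMIs and that of Cltb in few. Zfp207-201, of a zinc finger protein of the mitotic spindle, took 66.7% and 55.9% of Zfp207 UMIs against 22.2% and 28.1% (adjusted p = 0.0417 by edgeR), and Srsf3-202, of the splicing factor gene Srsf3, 83.3% and 87.1% against 94.4% and 93.8% (adjusted p = 0.0096 by edgeR). All 4 of these calls were lost without the newborn neurons of either aliquot.

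Against the neurons without the selecting genes no isoform change passed (0 of 292 genes, 0.0%) by edgeR, with 12 at an unadjusted p under 0.05 and 0 by the Simes combination. The newborn neurons had 39.5% and 42.1% of Pkm-201 and the neurons without the selecting genes 12.2% and 23.4%, and Myl6-201 stood at 46.5% and 61.2% against 68.8% and 74.2%. For both genes the aliquots of the groups did not overlap. Pkm was the 1 gene (0.342%) that passed with the aliquot as a block (adjusted p = 0.0051 by edgeR, against 0.233 without it). Ergic3-202, Chchd3-205 and Psap-205 were at 95.9%, 100% and 91.5% in these neurons, next to 94.3%, 98.4% and 89.8% in the newborn neurons.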

How the data were processed

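The authors counted Illumina UMIs per gene and cell with Cell Ranger 2.0 (per the labels) on mm10, and assigned Nanopore reads to Gencode isoforms with their own software, using the Illumina cell barcodes and UMIs as guide. The deposited values are raw counts of UMIs, the Illumina ones as a cell by gene matrix and the Nanopore ones as an isoform table, and no normalization had been applied. Here cells with at least 1400 detected genes were kept (1121 of 1141 barcodes), grouped by UMI sums of named genes, and summed per group and aliquot. Doublets were called with Scrublet (scanpy 1.11.5) and left in. The 28 genes that define groups were kept in library sizes and taken out of the tests. The summed counts were tested with edgeR 4.0.16 (R 4.3.3; TMM, filterByExpr, glmQLFit with robust dispersion, glmQLFTest) in 1 fit over 5 cell groups in 2 aliquots, and isoform usage with diffSpliceDGE, each with Benjamini-Hochberg adjustment. The fit with neurons lacking the selecting genes had 6 groups. CPM is UMIs per 1000000 UMIs of the summed group. Alternatives were RLE size factors, DESeq2 1.42.0, no filter on low counts, the aliquot as a block, only the compared groups in the fit, other limits on the selecting genes, doublets or shared barcodes left out, and each aliquot left out. Scripts were tested on simulated data.

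The members, gene lists and comparisons were chosen with earlier results of these data known. Named genes were, per comparison, the 10 largest rises and falls among genes that passed with at least 40 UMIs in the higher group and no overlap between groups, and for isoforms the 6 largest share changes with at least 30 UMIs in both groups. Pkm, Clta, Myl6 and Cdc42 were named in any case. Gene lists are described by counts and medians, with named examples of the largest changes; some members are counted but not reported by name here. Aliquots pair the groups by design: after removal of group means, the 10 pairs of groups correlated within aliquots at 0.115 to 0.404 over 6150 genes, so counts with the aliquot as a block stand beside the results. Illumina totals were 1809081 and 8295650 UMIs. UMIs of the 190 cell aliquot limit the precision of every scarce gene.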

Additional observations from a re-analysis of the deposited data

How the results depend on the processing

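Every named gene kept its direction under every alternative that gave it an adjusted p. Counts of genes that passed against progenitors, later neurons, their mean and the neurons without the selecting genes were 42, 78, 20 and 11 with DESeq2, and 403, 612, 197 and 135 with the aliquot as a block. With only the groups compared in the fit they were 27 and 374 against progenitors and later neurons, and isoform calls 12, 5 and 17 against radial glia, progenitors and later neurons. Isoform calls were 15, 4 and 3 with the Simes combination, 0 and 1 against progenitors and later neurons with no filter on low counts, 12 and 1 with the block against later neurons and neurons without the selecting genes, and 2 against later neurons with at least 3 UMIs of the selecting genes. With no filter 43 genes passed against the neurons without the selecting genes. Leaving out 1 aliquot of 1 group gave 29 to 145, 69 to 187, 19 to 71 and 6 to 22 genes, and 4 to 28, 0 to 11, 1 to 3 and 0 isoform calls. The low ends against progenitors (29) came without the 951 cell aliquot of the newborn neurons or of the progenitors, and against later neurons (69) without that of the newborn neurons. With at least 3 UMIs of the selecting genes the share of newborn neurons was 8.6% and 5.13% in the 190 and 951 cell aliquots (p = 0.0813 by Fisher's exact test). It was 6.45% and 4.28% without Sstr2 in the sum, and 6.18% and 5.13% after thinning. Leaving out barcodes found in both aliquots, added after the data were seen, kept every count within 1.5 times. The cause of these shifts was not tested. Of the named genes, all 20, 20, 17 and 18 still passed with the block. With DESeq2 7 of 20 missed the threshold against later neurons and 11 of 17 against the mean, and 1 of 20 and 2 of 18 against progenitors and the neurons without the selecting genes, where 8 and 9 had no adjusted p. With only the groups compared in the fit 10 of 20 missed it against progenitors and 5 of 18 against the neurons without the selecting genes. Without the 951 cell aliquot of the progenitors 5 of 20 passed against progenitors, without that of the newborn neurons 4 of 17 against the mean, and without that of the neurons lacking the selecting genes 5 of 18. All 6 named isoform changes against progenitors and all 6 against later neurons missed the threshold with no filter on low counts, those of Psap and Eef1d against progenitors under 5 alternatives, and the 4 of Dpf1, Zfp207, Cltb and Srsf3 under 6 or 7.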

Other observations

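Of 30 tested splicing and RNA-binding genes, Rbfox1, Rbfox2, Celf3, Celf4 and Elavl3 were higher in the newborn neurons than in intermediate progenitors and 25 did not pass, with a median log2 fold change of 0.22 beside 0.00 over all genes, of which 0.813% were higher. Rbfox2 stood at 508 and 447 CPM in the newborn neurons and 193 and 230 CPM in progenitors (1.07 ± 0.23, adjusted p = 0.0106 by edgeR). Elavl3, a neuronal RNA-binding protein, stood at 752 and 666 CPM against 405 and 326 (0.91 ± 0.21, adjusted p = 0.0175 by edgeR). Against later neurons Ptbp1, a repressor of neuronal exons, at 40.6 and 51.5 CPM against 13.9 and 13.7 (1.71 ± 0.44), and Rbfox3, the antigen of mature neurons NeuN (1.06 ± 0.29), were higher, Khdrbs2 was lower (-2.18 ± 0.32) and 27 did not pass, with a median of 0.29 beside 0.01, where 2.11% of all genes were higher and 1.74% lower.

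Of 21 respiratory chain and glycolysis genes tested, a list without Gpi1, none passed against progenitors, with a median of -0.19, where 0.813% of all genes were higher and 0.943% lower. Ldha and Atp5g1 were lower than in later neurons, with a median of -0.15 beside 0.01 and 1.74% of all genes lower, and none passed against the neurons without the selecting genes, where 0.127% and 0.27% of all genes did.

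Over all genes tested 0.943% were lower than in progenitors, 2.11% higher and 1.74% lower than in later neurons and 0.27% lower than in the neurons without the selecting genes. Among markers of neighbouring stages, Mfap4 and Tac2 of 6 intermediate progenitor markers were still higher in the newborn neurons than in later neurons, Tac2 on 18 UMIs against 1. Btg2, at 108 and 114 CPM in the newborn neurons and 285 and 244 in progenitors, and Gadd45g were lower than in progenitors. Of 10 radial glia markers, Vim, Dbi and Sparc were lower than in progenitors, Sparc on 3 UMIs. Of 5 tested markers of later glutamatergic neurons, Fezf2, Grin2b and Camk2b were lower in the newborn neurons than in later neurons, and the same 3 were lower than in the neurons without the selecting genes.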
